A study of Mus musculus with 6 samples.

Results

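The 10 genes described here belong to the BCL-2 family, which decides at the mitochondrial outer membrane whether a stressed cell lives or dies. They were taken by gene symbol from a table of 25251 genes, and all 10 were found. The list leaves out Bax, Bbc3 and Pmaip1, family members that p53 activates directly, which are given below for comparison. RNA was sequenced from subcutaneous CT26 tumours, grown from a mouse colon carcinoma line in BALB/c mice. Treatment was assigned at random once tumours measured 100 mm3. The control group (3 libraries) received solvent, and the irinotecan group (3 libraries) received CPT-11, which is irinotecan, at 25 mg/kg by intraperitoneal injection every 4 days. The genotype is labelled WT in both groups. The sources used here do not give the age or sex of the mice, how many doses were given, or when tumours were collected after them. Irinotecan is a prodrug whose active form traps topoisomerase I on DNA and so breaks replicating DNA. The labels do not say that the libraries of a group came from separate mice, so each p-value reflects only how far these libraries spread, which may be technical.

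Proteins of the family share short BCL-2 homology regions. The pro-survival proteins (Bcl2, Bcl2l1, Bcl2l2 and Mcl1) hold effectors such as Bak1 in check. The effectors (Bak1 and Bok) permeabilize the outer membrane and release cytochrome c. The BH3-only proteins (Bid, Bad, Bcl2l11 and Bmf) carry the BH3 region alone. They sense stress and either block the pro-survival proteins or switch on effectors such as Bak1 directly. Many members are set by phosphorylation, cleavage or protein turnover, none of which is measured by RNA.

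The BH3 region is the helix through which members of the family bind one another, and its coding sequence is shown because all 3 roles share it. Each line gives 30 bases, 5′ to 3′, from the longest annotated coding sequence (GENCODE M21, GRCm38) that holds the BH3 pattern. The capitals mark the codon of the leading leucine, or methionine in Bcl2l2, and the codon of the aspartate that follows it after 4 other codons.
Bcl2: accCTCcgccgggctgggGATgacttctct
Bcl2l1: gcgCTGagagaggcaggcGATgagtttgaa
Bcl2l2: gccATGcgggctgctggaGACgagtttgag
Mcl1: accCTGcggcgcgtgggcGACggcgtgcag
Bak1: cagCTTgctctcatcggaGATgatattaac
Bok: gtgCTGctgcgcttgggaGATgagctggag
Bid: catCTCgcccaaataggcGATgagatggac
Bad: gagCTCcgaaggatgagcGATgagtttgag
Bcl2l11: gagCTGcggcggatcggaGACgagttcaac
Bmf: aagCTTcagtgtattgcaGACcagttccat
The pattern searched was leucine or methionine, any 3 residues, then glycine, alanine or serine, then aspartate, then an acidic residue, glutamine or glycine, then phenylalanine, valine, isoleucine, leucine or methionine. It was written to take the known BH3 regions of this family, so its presence is no finding. Each member held it 1 time, and 4.16% of the 16146 genes searched held it somewhere. GC content of the window ran from 43.3% in Bak1 and Bmf to 80.0% in Mcl1. GC content over the whole transcripts is set beside the levels in each library below.

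The libraries held 13940650 to 15656894 reads, recovered from the deposited normalized counts, and the members held 27 to 8131 reads each. Irinotecan replicate 1 stood apart. Across genes, its log2 values had correlations of 0.9324 to 0.9406 with the other libraries, whereas the 10 pairs without it had 0.9748 to 0.9846. Reads fell on 19040 genes in it and on 20571 to 21426 in each of the others. Tested genes with more than 60% GC lay at a median of -0.76 from the control mean on the log2 scale in it, and at -0.09 to 0.08 in the other 5 libraries. A log2 fold change that turns its sign, or changes in size by over 1.5 times, when this library is left out is therefore given both ways. Of the 9 colon epithelium markers 5 passed the filter on low values. Krt20 held 1608.0 to 2098.3 normalized counts, Krt18 46.2 to 142.2, Krt8 37.0 to 149.3, Lgals4 45.2 to 137.8 and Cdh1 11.1 to 38.0. Epcam was at 0 in every library except irinotecan replicate 2 (2.9), and Cdx2, Vil1 and Krt19 held at most 4.8.

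No member was called as different between the groups. Limma, on log2(normalized count + 1) with Benjamini-Hochberg adjustment over the 14639 genes tested, called 0 of the 10 higher and 0 lower at an adjusted p under 0.05. The share called among all tested genes was 0% in each direction. At an unadjusted p under 0.05 the member count was also 0, where 2.68% of all tested genes were higher and 3.08% lower. DESeq2 called 0 members, against 0.200% of its tested genes higher and 0.136% lower, and edgeR and limma-voom called 0 genes of any kind. The adjusted p of the members with limma ran from 0.743 to 0.977. All 10 members passed the filter on low values, a mean of at least 10 normalized counts. Of these, 7 had a negative log2 fold change and 3 a positive one, with a median of -0.21, whereas 51.8% of all tested genes were negative, with a median of -0.01. Without irinotecan replicate 1 the split was 5 and 5, with a median of -0.03. In that limma fit 0 members were called, against 0.0137% of all tested genes higher and 0% lower, and 1 member was lower at an unadjusted p under 0.05, where 4.34% of all tested genes were higher and 5.15% lower.

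**Figure D1:**
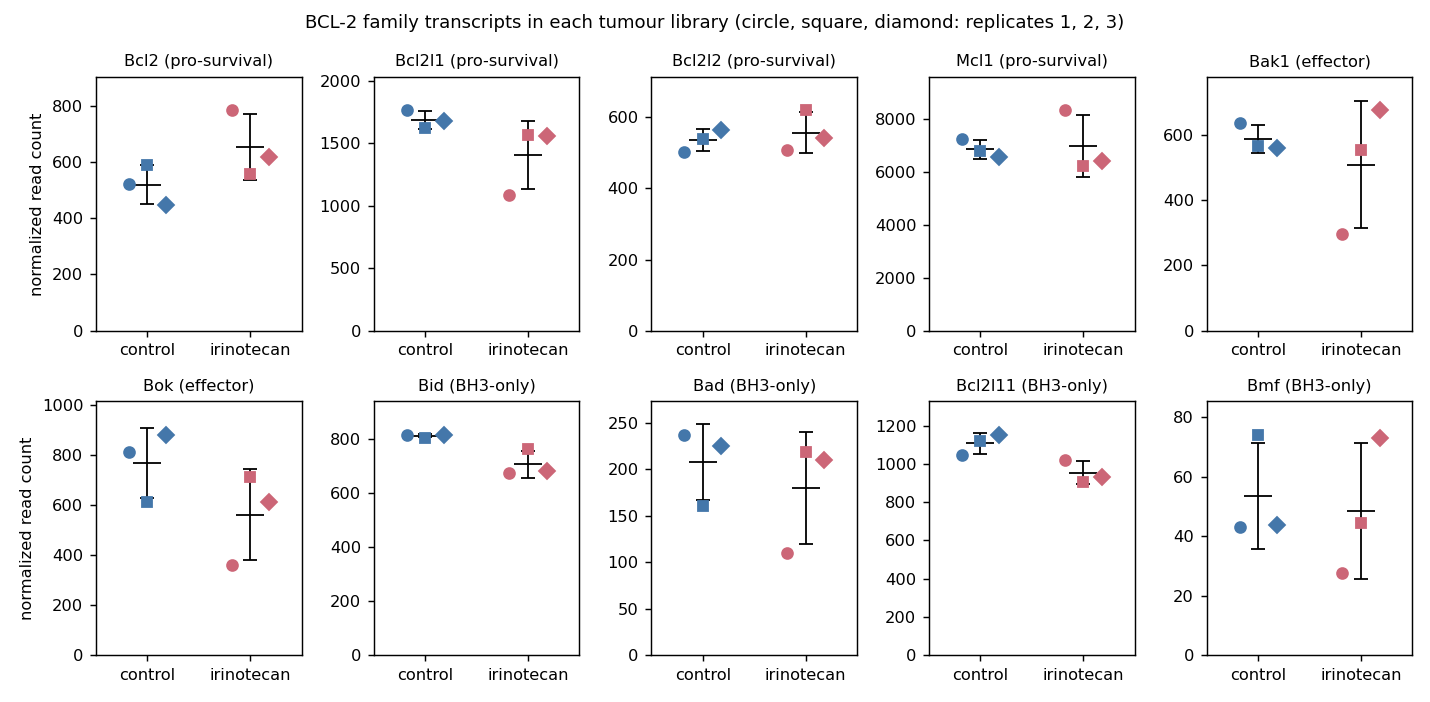
Normalized read count (vertical axes, from 0) of each of the 10 genes in the 3 control and 3 irinotecan libraries; circles, squares and diamonds are replicates 1, 2 and 3, and black bars are mean ± SD. The irinotecan circle lies far below the other points for Bcl2l1, Bak1, Bok and Bad, and above them for Bcl2 and Mcl1.

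Mcl1 was by far the most abundant transcript of the 10. Its short-lived protein guards Bak1 and several BH3-only proteins. Levels of different genes are compared as normalized counts per kilobase of the deposited gene length. On that scale Mcl1 had a control level of 2012 ± 105.5 (SD, n = 3). The next were Bok at 418.5 ± 76.4 and Bcl2l1 at 367.7 ± 15.8, whose control values overlapped (333.0 to 479.9 and 353.1 to 384.5). Bak1 at 244.7 ± 17.9 and Bid at 229.4 ± 1.8 differed by less than the SD of Bak1, although every control value of Bak1 (232.9 to 265.3) was above every one of Bid (227.4 to 230.5). Bcl2l11 followed at 138.2 ± 6.7, then Bcl2l2 at 120.0 ± 7.0 and Bad at 103.7 ± 20.5, the last pair overlapping. Bcl2, the founding member, stood at 56.8 ± 7.6 and Bmf was last at 10.2 ± 3.4. Without division by length the order changed below Mcl1, with Bcl2l1 next and Bcl2l11 after it.

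Mcl1 made up 78.0% to 79.3% of the summed pro-survival level per kilobase in the controls and 77.2% to 84.8% with irinotecan. The highest share was in irinotecan replicate 1 and the other 2 irinotecan libraries lay within 1 percentage point of the controls' range. Bcl2l1 made up 14.0% to 14.9% in the controls, 14.4% and 14.1% in irinotecan replicates 2 and 3, and 8.24% in replicate 1. The level of Mcl1 per kilobase was 5.26 to 5.63 times that of Bcl2l1 in every library but irinotecan replicate 1, where it was 10.3 times. Against Bcl2 it was 30.9 to 39.1 times in the controls and 27.7 to 30 times with irinotecan. Among the effectors Bok made up 58.5% to 67.3% in the controls and 54.3% to 62.7% with irinotecan. Bid was the largest part of the BH3-only level per kilobase, at 46.6% to 49.3% in the controls and 45.0% to 50.4% with irinotecan, but without division by length Bcl2l11 was the largest, at 50.7% on average in the controls against 37.3% for Bid. The shares of every member but Bcl2 overlapped between the groups. The share of Bcl2 did not overlap, at 1.99% to 2.55% in the controls and 2.57% to 2.98% with irinotecan. That gap was small, the normalized counts of Bcl2 did overlap, and the difference in share was not tested.

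**Figure D2:**
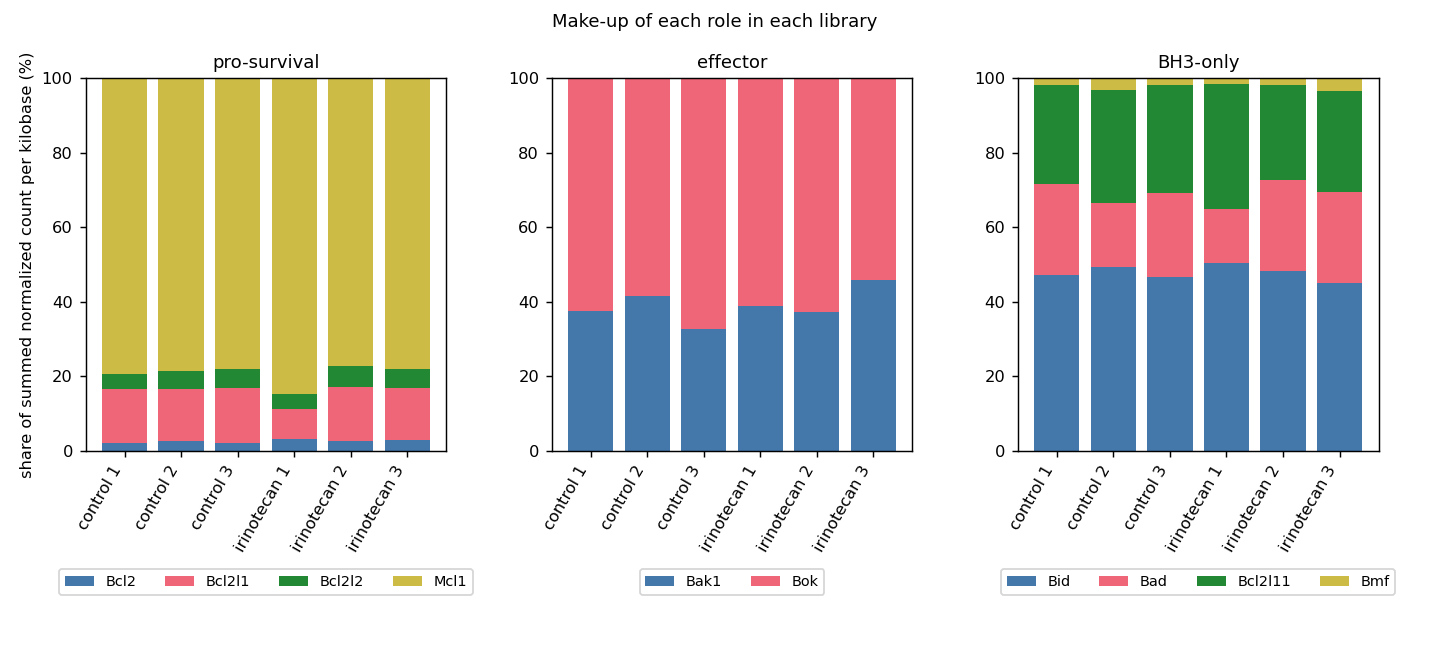
Share of each gene in the summed normalized count per kilobase of its role (vertical axes, percent), for each of the 6 libraries (horizontal axes). Mcl1 takes 77.2% to 84.8% of the pro-survival level in every library, and the Bcl2l1 share is smallest, at 8.24%, in irinotecan replicate 1.

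Among the pro-survival genes, Mcl1 (ENSMUSG00000038612, GRCm38 chromosome 3 from 95658788 to 95663176, plus strand) held 7271.4, 6790.7 and 6565.1 normalized counts in control replicates 1, 2 and 3. It held 8348.8, 6241.2 and 6416.8 in irinotecan replicates 1, 2 and 3. The first irinotecan library was above every control and the other 2 were below every control. The log2 fold change was 0.01 (SE 0.153, 95% interval -0.34 to 0.37) and -0.12 without irinotecan replicate 1. Bcl2l1 encodes Bcl-xL, which holds effectors and BH3-only proteins at the outer membrane (ENSMUSG00000007659, chromosome 2 from 152780668 to 152831728, minus strand). It held 1763.2, 1619.5 and 1676.1 normalized counts in the controls. With irinotecan the values were 1088.4, 1562.2 and 1554.8. All 3 irinotecan values lay below all 3 controls, but replicates 2 and 3 did so by a small margin. Its log2 fold change was -0.29 (SE 0.167, 95% interval -0.67 to 0.10), and it was -0.11 without irinotecan replicate 1, a change in size of over 1.5 times.

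Bcl2 (ENSMUSG00000057329, chromosome 1 from 106538178 to 106714274, minus strand) held 523.5, 588.6 and 449.3 normalized counts in the controls. With irinotecan it held 785.5, 557.7 and 620.3. Irinotecan replicate 1 was the highest and replicate 2 lay inside the control range. The log2 fold change of 0.32 (SE 0.18, 95% interval -0.09 to 0.74) was the largest positive one of the 10, and it was 0.18 without irinotecan replicate 1 and 0.19 with the trend on GC content and gene length removed. Bcl2l2 encodes Bcl-w (ENSMUSG00000089682, chromosome 14 from 54883377 to 54888234, plus strand). It held 503.0, 538.4 and 565.5 normalized counts in the controls and 508.3, 620.3 and 542.3 with irinotecan, with overlapping groups and a log2 fold change of 0.05 (SE 0.145, 95% interval -0.28 to 0.39), or 0.12 without irinotecan replicate 1. Its locus overlaps the protein-coding gene Gm20521 on the same strand, so reads could be shared, although Gm20521 has no values here. The intervals for Mcl1 and Bcl2l2 leave room for changes of up to 0.37 and 0.39 on the log2 scale upward, and 0.34 and 0.28 downward, so equality was not shown.

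The effectors were low in 1 library. Bak1, which sits in the outer membrane before activation (ENSMUSG00000057789, chromosome 17 from 27019810 to 27029009, minus strand), held 638.5, 567.7 and 560.6 normalized counts in the controls. With irinotecan it held 297.8, 555.7 and 677.1, so replicate 1 was at 50.6% of the control mean while replicate 3 was above every control. A log2 fold change of -0.29 (SE 0.281, 95% interval -0.93 to 0.36) resulted, and its sign turned to 0.06 without irinotecan replicate 1. The locus overlaps Ggnbp1 on the opposite strand. Bok, an effector kept low by protein degradation (ENSMUSG00000026278, chromosome 1 from 93685660 to 93695764, plus strand), held 814.3, 612.7 and 883.1 normalized counts in the controls. The irinotecan libraries held 358.3, 712.7 and 614.2. Replicates 2 and 3 lay inside the control range and replicate 1 was at 46.5% of the control mean. Its log2 fold change of -0.50 (SE 0.267, 95% interval -1.11 to 0.12) was the most negative of the 10 and was -0.20 without irinotecan replicate 1. Without irinotecan replicate 2 its limma p was 0.0349, with an adjusted p of 0.524.

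Of the BH3-only genes, Bcl2l11 and Bid were lower in every irinotecan library than in any control. Bcl2l11 encodes Bim, which activates effectors such as Bak1 and binds all pro-survival proteins (ENSMUSG00000027381, chromosome 2 from 128126038 to 128162547, plus strand). It held 1049.9, 1122.9 and 1155.2 normalized counts in the controls. The irinotecan values were 1022.7, 908.3 and 934.5. Irinotecan replicate 1 was the closest to the controls here. The log2 fold change was -0.22 (SE 0.126, 95% interval -0.51 to 0.07, limma adjusted p = 0.743). Without irinotecan replicate 1 it was -0.27, with an unadjusted limma p of 0.0266 and an adjusted p of 0.450. Over all 6 libraries its unadjusted limma p was 0.124 in the main fit. With the trend on GC content and gene length removed, the log2 fold change was -0.31 (unadjusted limma p 0.0220, adjusted p 0.693). With estimated library weights, the log2 fold change was -0.25 (unadjusted limma p 0.0287, adjusted p 0.388). Bcl2l11 did not pass the adjusted threshold in any fit.

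Bid links death receptors to mitochondria once caspase-8 cleaves its protein (ENSMUSG00000004446, chromosome 6 from 120891930 to 120916853, minus strand). It held 818.0, 807.1 and 818.2 normalized counts in the controls, with the smallest control SD of the 10 (6.33), and 674.6, 765.7 and 682.1 with irinotecan. Its log2 fold change was -0.21 (SE 0.129, 95% interval -0.50 to 0.09) and -0.17 without irinotecan replicate 1. The 3′ end of its locus overlaps Bcl2l13 on the opposite strand. The Bid locus also overlaps Gm44260 on the same strand, which had a mean of 18.24 normalized counts. With Bcl2l1, these make 3 members whose irinotecan values all lay below all control values (30% of the 10), against 7.89% of all tested genes, and 0 members lay above, against 6.68%. With 10 genes and no called member this count is a description.

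Bad and Bmf overlapped between the groups. Bad binds Bcl2 and Bcl2l1 when survival kinases do not phosphorylate it (ENSMUSG00000024959, chromosome 19 from 6941861 to 6951898, plus strand). It held 237.5, 161.0 and 225.6 normalized counts in the controls. With irinotecan it held 109.9, 218.6 and 209.8. Replicate 1 was the lowest library and the others lay inside the control range. Its log2 fold change of -0.26 (SE 0.301, 95% interval -0.95 to 0.43) turned to 0.06 without irinotecan replicate 1. Bad overlaps Gpr137 on the opposite strand. Bmf, which the dynein light chain Dynll2 tethers to myosin motors (ENSMUSG00000040093, chromosome 2 from 118528757 to 118549687, minus strand), was the least abundant. It held 43.0, 74.2 and 43.6 normalized counts in the controls. It held 27.7, 44.3 and 73.0 with irinotecan, so the ranges overlapped widely. Its log2 fold change of -0.21 (SE 0.414, 95% interval -1.15 to 0.74) turned to 0.13 without irinotecan replicate 1.

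**Figure D3:**
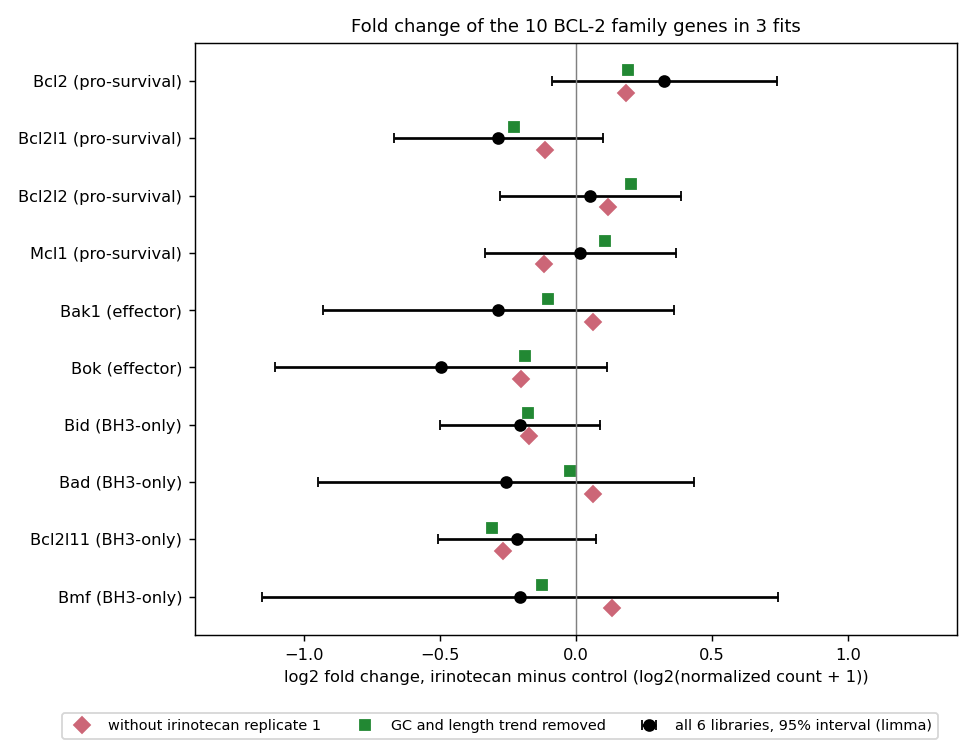
Log2 fold change of irinotecan minus control (horizontal axis) for the 10 genes; black points and bars are the limma estimate and 95% interval over all 6 libraries, red diamonds leave out irinotecan replicate 1 and green squares have the GC and length trend removed. All 10 intervals include 0, and without irinotecan replicate 1 Mcl1 moves to the negative side and Bak1, Bad and Bmf to the positive side.

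Irinotecan replicate 1 gave the lowest value of the 6 libraries for 6 of the 10 members (Bcl2l1, Bak1, Bok, Bid, Bad and Bmf) and the highest for Bcl2 and Mcl1. Among all tested genes it was the lowest for 36.8% and the highest for 34.2%. Of the 6 low members, Bid had the lowest transcript GC content, at 51.3%. On the log2 scale, Bok at 61.0% GC differed by -1.08 from the control mean, Bak1 at 57.0% by -0.98, Bad at 58.4% by -0.89 and Bmf at 57.8% by -0.88. Bcl2l1 at 55.5% GC had a difference of -0.63. Bcl2, at 45.3% the lowest in GC, had a difference of 0.60. Mcl1 at 54.9% (0.28) and Bcl2l2 at 59.6% (-0.07) did not follow that order. Across the 10 members Pearson's r between transcript GC content and the log2 difference from the control mean was -0.73 in this library, and -0.33 to 0.46 in the others. Across all tested genes it was -0.28 in this library and -0.21 to 0.21 in the others. All members of a library share its depth and preparation, so this is a description. Once a loess trend over GC content and length had been taken out of each library, the differences in irinotecan replicate 1 were -0.25 for Bok, -0.48 for Bak1, -0.25 for Bad, -0.67 for Bmf, -0.49 for Bcl2l1 and 0.20 for Bcl2. For Bcl2l11 the removal took the difference from -0.12 to -0.42, for Mcl1 from 0.28 to 0.53 and for Bcl2l2 from -0.07 to 0.32, farther from the control mean in each case.

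**Figure D4:**
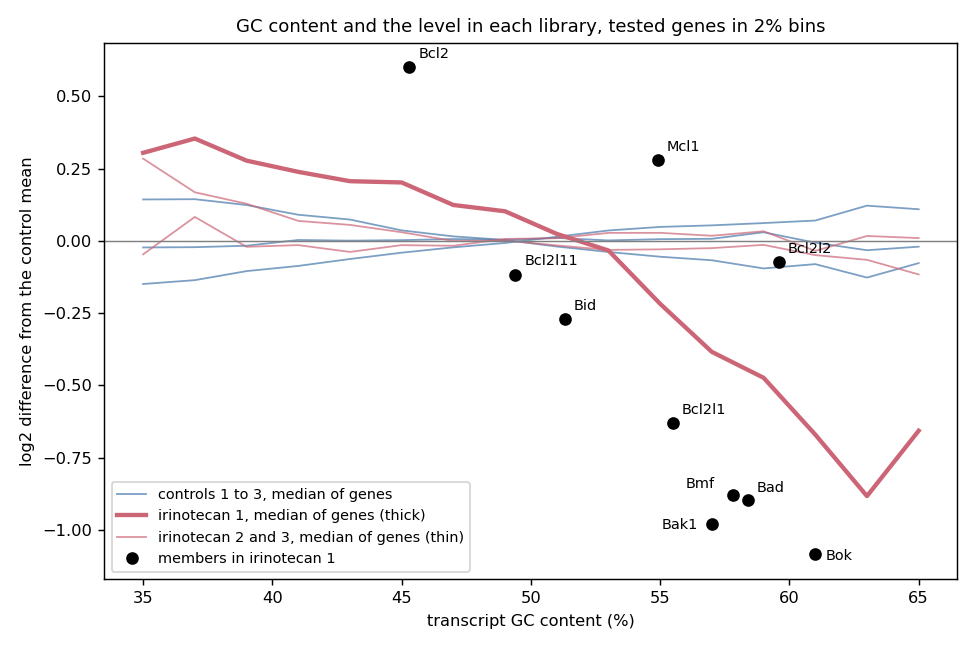
Log2 difference from the control mean (vertical axis) against transcript GC content (horizontal axis, percent); lines are medians of tested genes in 2% bins for each library, black dots the 10 members in irinotecan replicate 1. The thick line of irinotecan replicate 1 descends with GC content. Bok, Bak1, Bad, Bmf, Bcl2l1, Bid and Bcl2l11 lie below that line, while Mcl1, Bcl2l2 and Bcl2 lie above it.

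Summed levels of markers of other cells are given beside these values. The 8 macrophage and monocyte markers summed to 25109.2 to 26812.9 normalized counts in the controls, 11728.0 in irinotecan replicate 1 and 26507.0 and 22877.0 in replicates 2 and 3. The 6 endothelial markers summed to 2037.7 to 2383.0 in the controls and 1385.1 to 1779.8 with irinotecan. The 6 neutrophil markers summed to 473.0 to 878.3 and 278.4 to 279.3, and the 4 pan-leukocyte markers to 4734.2 to 5295.7 and 3209.7 to 5656.6. In the same order the 9 T cell markers summed to 340.8 to 471.5 and 251.6 to 593.3, with Cd8b1 and Cd5 at 0 in irinotecan replicate 1, and the 4 B cell markers to 17.4 to 33.5 and 15.4 to 21.2. The 4 NK cell markers summed to 176.2 to 252.4 and 204.3 to 398.7, the 7 fibroblast markers to 30810.5 to 42329.2 and 35562.8 to 39432.4, and the 5 skeletal muscle markers to 23.0 to 312.2 and 109.9 to 678.1. The endothelial and neutrophil sums did not overlap between the groups and the others did. A sum follows its most abundant genes, such as Lyz2 (13075.4 to 13933.0 in the controls) among the macrophage and monocyte markers. All 8 of these markers had a negative log2 fold change, with a median of -0.46, or -0.12 without irinotecan replicate 1. Below every control in all irinotecan libraries were 3 of these 8, 3 of the 6 endothelial and 3 of the 5 tested neutrophil markers. The share among all tested genes was 7.89%, and 0 markers were called. The part of the marked cell types in the values of Bcl2l11, Bid and Bcl2l1 was not tested. In bulk tumours, fewer cells of a type and less RNA per cell cannot be told apart.

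Of the 14 other family members found in the table, 11 were tested, 4 had a positive log2 fold change and 7 a negative one, none was called, and the median was -0.18 (-0.10 without irinotecan replicate 1). Bax, the effector partner of Bak1 and a p53 target, held 952.6, 824.9 and 841.5 normalized counts in the controls and 303.9, 954.5 and 1011.5 with irinotecan. Like Bak1, it was lowest in irinotecan replicate 1. The other irinotecan libraries were above every control for Bax, replicate 2 by a small margin (954.5 against 952.6). Bax had a log2 fold change of -0.39 (SE 0.411) that turned to 0.17 without irinotecan replicate 1. Bbc3, which encodes Puma, held 346.8, 219.6 and 293.4 in the controls against 44.2, 233.1 and 209.8 in the irinotecan libraries, a log2 fold change of -1.11 (SE 0.571), or -0.35 without irinotecan replicate 1. Its transcripts have a GC content of 68.0%. Pmaip1, which encodes the Mcl1 antagonist Noxa, held 27.1, 40.8 and 48.4 in the controls against 17.5, 31.8 and 21.3 (-0.70, SE 0.389). The mitophagy receptors Bnip3 and Bnip3l had log2 fold changes of 0.14 and 0.17, and of -0.26 and -0.10 without irinotecan replicate 1.

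Across 6 lists of the apoptosis pathway, 62 of 67 genes were tested and 0 were called by limma at an adjusted p under 0.05. An unadjusted limma p under 0.05 was found for 1 gene higher and 1 lower, where 2.68% of all tested genes were higher and 3.08% lower. All 3 irinotecan values lay above all controls for 7 genes (11.3%, against 6.68% of all tested genes) and below for 5 (8.06%, against 7.89%). Downstream of the family, the 7 genes of the apoptosome and caspases had a median of -0.04, 3 of them positive. The initiator Casp9 had a log2 fold change of 0.35 (SE 0.242), Casp6 one of -0.34 (SE 0.224), and Cycs, the cytochrome c released by the effectors, one of -0.26 (SE 0.203). Without irinotecan replicate 1 these were 0.10 for Casp9, -0.14 for Casp6 and -0.04 for Cycs.

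The inhibitor of apoptosis proteins and their antagonists had a median of 0.22, with 5 of 7 positive, and 0.14 without irinotecan replicate 1. The ubiquitin ligase Birc2 was at 0.40 (SE 0.189), or 0.23 without irinotecan replicate 1, and the giant Birc6, which also marks pro-apoptotic proteins for degradation, at 0.52 (SE 0.253). Birc6 held 3589.9 to 4062.9 normalized counts in the controls and 8614.7, 4209.0 and 4687.7 in irinotecan replicates 1, 2 and 3. Its difference was 0.20 without irinotecan replicate 1. Birc3 was at -0.09 and the mitochondrial protease Htra2 at -0.42, the latter 0.04 without irinotecan replicate 1. The 9 mitochondrial partners had a median of 0.04, which turned to -0.08 without irinotecan replicate 1, with Dnm1l, which divides mitochondria, at 0.12 and the channel Vdac3 at 0.11. Without that library Dnm1l was at 0.03 and Vdac3 at -0.12. Aifm1 and Endog, released with cytochrome c, were at -0.10 and -0.20, or -0.05 and -0.04 without it. The 10 genes of the death receptor arm upstream of Bid had a median of 0.03, or 0.07 without irinotecan replicate 1. The death ligands Tnfsf10 and Fasl were at 0.49 (SE 0.261) and 0.80 (SE 0.489), the receptor Tnfrsf1a at -0.19 and its adaptor Tradd at -0.08. Without irinotecan replicate 1 they were at 0.57 for Tnfsf10, 0.45 for Fasl, -0.01 for Tnfrsf1a and 0.11 for Tradd. Fasl was low, at 11.2 to 17.8 normalized counts in the controls and 14.4 to 43.1 with irinotecan.

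Genes that act on the members' transcripts or proteins held both genes with an unadjusted p under 0.05 over the 6 libraries, and the 18 tested had a median of 0.07. Dynll2, the light chain that sequesters Bmf, held 790.9, 888.7 and 894.7 normalized counts in the controls and 1379.0, 1022.9 and 1141.3 with irinotecan, above every control. Limma across all genes gave it a log2 fold change of 0.45 (SE 0.152), with an unadjusted p of 0.0171 and an adjusted p of 0.743. Ddit3 encodes CHOP, a stress factor that can activate Bcl2l11. It held 1012.5, 657.6 and 770.8 in the controls against 558.6, 616.4 and 562.5 in the irinotecan libraries, all below every control. Limma gave a log2 fold change of -0.47 (SE 0.179), with an unadjusted p of 0.0301 and an adjusted p of 0.743. Atf4, which acts upstream of Ddit3, held 7737.9, 6024.3 and 6652.3 in the controls against 1867.7, 5387.9 and 5254.3, also below every control (-0.85, SE 0.374, and -0.35 without irinotecan replicate 1).

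The ubiquitin ligase gene Btrc was above every control with irinotecan, at 508.3, 456.5 and 369.9 against 335.6, 350.3 and 332.1 in the controls (log2 fold change 0.38, SE 0.167). Its protein is part of a ligase that marks Mcl1 for degradation. Its limma adjusted p was 0.743, and the Mcl1 transcript itself differed by 0.01 on the log2 scale.

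**Figure D5:**
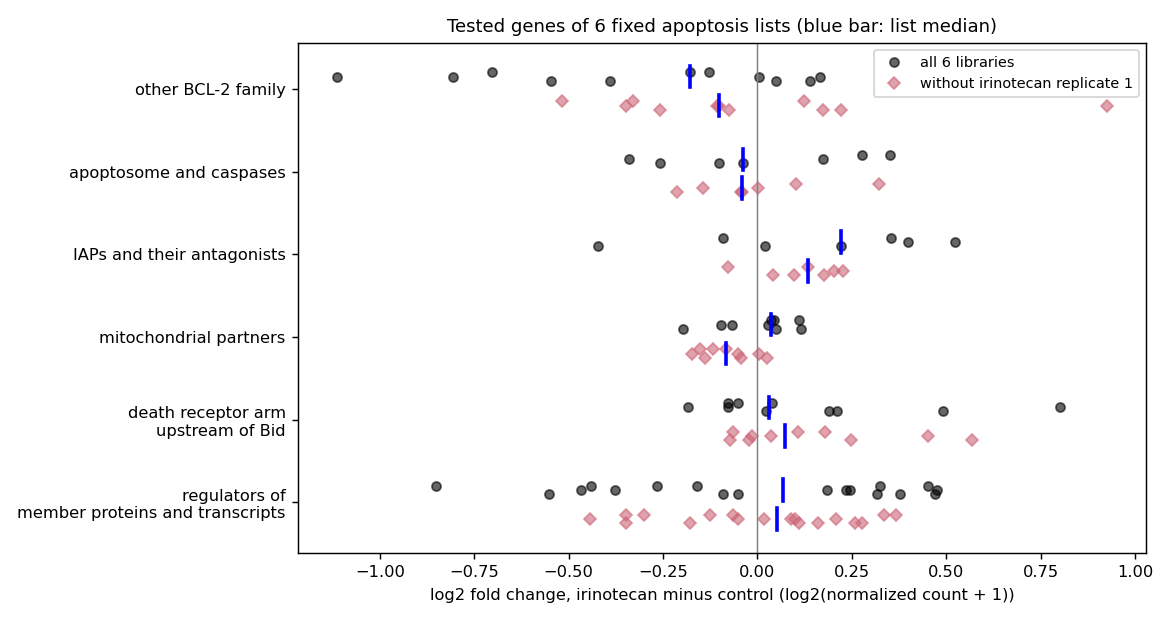
Log2 fold change of irinotecan minus control (horizontal axis) for the tested genes of 6 fixed lists (vertical axis); black dots use all 6 libraries, red diamonds leave out irinotecan replicate 1, and blue bars are list medians. For 39 of the 62 genes the diamond lies closer to 0 than the dot, and the list medians run from -0.18 to 0.22 over all 6 libraries.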

How the data were processed

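The authors deposited 1 table of normalized signal per gene: per the deposited values, read counts divided by 1 factor per library, since 100% of values were whole multiples of the library's smallest value above 0 (tolerance 1e-06). Whole reads were recovered by that division. The table also holds the authors' group means, log2 fold changes and p-values, per the file headers, which the results do not use. The build was GRCm38 (mm10), per the submitters' processing notes, which name HISAT2 2.0.5, DESeq2 1.20.0, featureCounts 1.5.0-p3, CASAVA and fastp with no role or order. Neither the annotation release nor the strandedness of counting is given in the sources used here, so reads of overlapping antisense genes cannot be told apart. Of the 10 members, 9 had the same coordinates in GENCODE M21.

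The main test was limma 3.58.1 (R 4.3.3), with a mean-variance trend and empirical Bayes, on log2(normalized count + 1), which understates changes of low genes. Genes with a mean of at least 10 were tested, the model held the group only, and adjusted p-values are Benjamini-Hochberg over 14639 genes. For GC content, each gene took the median of its GENCODE M21 transcripts (99.87% of tested genes had one). The fit was first tested on simulated data. Alternatives were DESeq2 1.42.0, edgeR 4.0.16 and limma-voom on recovered reads, other scalings, pseudocounts and filters, library weights, removal of a GC and length trend (loess, span 0.5), a replicate block, and each library left out. DESeq2 and edgeR without irinotecan replicate 1 were chosen after seeing the data. Same-group libraries differed beyond counting noise (chi-square per degree of freedom at least 10.75). Depth bounds counting error only. The members and lists were chosen with earlier results of these data known. Levels between genes use the deposited gene length. Named outside the members were, in each list, the 2 genes with the smallest p in each direction, and Bax, Bbc3 and Pmaip1. Of these, 1 gene is not reported here.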

Additional observations from a re-analysis of the deposited data

How the results depend on the processing

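Under 23 alternative settings none of the 10 members was called (smallest adjusted p 0.388, Bcl2l11 with estimated library weights). Of these settings 5 (both other filters, protein-coding genes only, the adjusted p threshold and the replicate block) leave the members' log2 fold changes as they are. In the 18 that changed them, the sign held for Bcl2 (0.18 to 0.43), Bcl2l1 (-0.37 to -0.11), Bok (-0.70 to -0.19), Bid (-0.26 to -0.17) and Bcl2l11 (-0.31 to -0.18). With library weights the sign turned for Mcl1 (-0.12), Bad (0.0046), Bmf (0.084), Bnip3l (-0.041), Bnip3 (-0.13), Vdac3 (-0.077), Tradd (0.11) and Bax (0.088). Removal of the trend over GC content and length turned Endog (0.25) and Tradd (0.21). With each library left out in turn, Mcl1 ran from -0.12 to 0.092, Bak1 from -0.53 to 0.061, Bad from -0.43 to 0.062, Bmf from -0.55 to 0.13, Bcl2l2 from -0.027 to 0.12, Bnip3l from -0.10 to 0.32, Bnip3 from -0.26 to 0.45, Htra2 from -0.73 to 0.040, Vdac3 from -0.12 to 0.28, Tradd from -0.22 to 0.11 and Bax from -0.69 to 0.17. Apart from irinotecan replicate 1, the sign turned for Bmf without control replicate 2 (0.049), for Mcl1 without control replicate 3 (-0.018), for Bcl2l2 without irinotecan replicate 2 (-0.027) and for Bnip3 without control replicate 1 (-0.089). Without irinotecan replicate 1, DESeq2 gave -0.12 for Mcl1, 0.065 for Bak1, 0.040 for Bad, 0.13 for Bmf, -0.11 for Bnip3l, -0.31 for Bnip3, 0.044 for Htra2, -0.12 for Vdac3, 0.11 for Tradd and 0.17 for Bax. For the same genes in that order edgeR gave -0.12, 0.068, 0.043, 0.14, -0.11, -0.30, 0.047, -0.11, 0.12 and 0.17. Over all tested genes DESeq2 called 28 higher and 19 lower, and 74 and 77 without irinotecan replicate 1, where edgeR called 2 higher. Library weights gave 30 and 22, and leaving out single libraries gave 0 to 2 higher with limma. The cause was not tested. Without division by gene length, the order by control level was 2 for Bcl2l1, 3 for Bcl2l11, 4 for Bid, 5 for Bok, 6 for Bak1, 8 for Bcl2 and 9 for Bad, and mean control shares within a role were 71.5% for Mcl1, 17.5% for Bcl2l1, 5.58% for Bcl2l2, 5.41% for Bcl2, 56.4% for Bok, 43.6% for Bak1, 50.7% for Bcl2l11, 37.3% for Bid and 9.52% for Bad. The replicate block called 0 genes and left Bcl2l11 at -0.22. Same-numbered libraries had correlations of deviations of -0.11, -0.0087 and -0.21, and none correlated best with its own number. With 3 libraries per group, these values cannot settle whether the numbers pair the samples. Depth limits Bmf most, with as few as 27 reads.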
